A study of Mus musculus with 189 samples.

Results

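The genes described here are 8 genes of blood stem cells and early progenitors, Cd34, Ly6a, Flt3, Lyl1, Myb, Meis1, Erg and Sox4, out of 46078 genes counted. They were chosen by name, as genes that blood progenitors are known for, and were measured in all but 2 of 189 sequenced single cells from the mouse peritoneal cavity. All 8 identifiers had a row in the count table. Mast cells are tissue cells that carry granules of proteases, histamine and heparin, and basophil-mast cell progenitors (BMCPs) are named for an ability to give rise to basophils and mast cells. The series compared these stages of late mast cell development.

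All cells came from 4 female C57BL/6 mice with no genetic change or treatment named in the labels. The ages of the mice are not given in the sources used here. Both gates took live cells that lacked lineage markers and carried c-Kit, the stem cell factor receptor, together with FcεRI, the receptor for IgE. The mature gate (94 cells) was integrin β7 low with high side scatter. The BMCP gate (95 cells, of which 93 were kept) was integrin β7 high with low side scatter. The labels tie no cell to a mouse, a plate or an index kit. Each group was therefore 1 pooled sample, no test between groups was possible, and the part of mouse, plate and kit in any difference was not tested.

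The kept BMCPs were also divided by reads of Gzmb, the gene of granzyme B, at 100 CPM. CPM, the unit of level used throughout, is a gene's count over all counts on mouse genes of the same cell or pool, multiplied by 1000000. A total of 60 BMCPs lay above that level, the lowest at 543 CPM, and 33 lay below it, the highest at 27.9 CPM. They are called Gzmb-high and Gzmb-low BMCPs below. No BMCP lay between 50 and 200 CPM, and no mature mast cell exceeded 15.9 CPM. These classes are ranges of a measured value within 1 sorted sample and not types named by the labels.

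Depth was similar across classes, with medians of 1255267 reads on mouse genes per mature mast cell, 1273122 per Gzmb-high BMCP and 1233201 per Gzmb-low BMCP, and a range over kept cells from 344022 to 2152221. A list of 12 mast cell genes summed to at least 138900 CPM in every mature mast cell and at least 57704 CPM in every Gzmb-high BMCP. The median sum was 278554 CPM in mature mast cells, 140529 CPM in Gzmb-high BMCPs and 274975 CPM in Gzmb-low BMCPs. Gzmb, whose reads define the BMCP classes, is 1 of the 12 and had 22013 CPM in BMCP number 67. BMCP numbers 46 and 80, both Gzmb-low, went against their label. Their mast cell genes summed to 1061 and 524 CPM, while 7 B cell genes summed to 67714 and 71103 CPM, and the highest sum over 8 dendritic cell genes, which include class II histocompatibility genes, was 33849 CPM in number 46. The B cell genes summed to 1000 CPM or more in 4 mature mast cells (at most 1355 CPM), 4 Gzmb-high BMCPs (at most 1575 CPM) and 3 Gzmb-low BMCPs, among them numbers 46 and 80. The dendritic cell genes summed to 7439 CPM in BMCP number 55, a Gzmb-high cell, and 98.1% of the Gzmb-high reads of H2-Ab1, a class II gene, came from it. Results for the BMCPs are given with these cells, and in places also without BMCP numbers 46 and 80. Fibroblast and mesothelial genes never summed above 4.83 CPM in a cell. T cell, natural killer cell, macrophage and eosinophil lists had a median sum of 0 CPM in every class, with a highest sum of 805 CPM in any cell. The 8 endothelial genes summed to at most 1128 CPM in a cell, and of them Cdh5, Tie1, Cldn5 and Ramp2 had 0 reads in all kept cells, and Pecam1, also a gene of blood cells, had 178 CPM in mature mast cells, 122 CPM in Gzmb-high BMCPs and 162 CPM in Gzmb-low BMCPs.

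Blood stem cells lose self-renewal and then lineage options step by step, and surface proteins and transcription factors mark how far a cell has gone. Cd34 encodes a sialomucin of the cell surface and Ly6a encodes Sca-1, a glycolipid-anchored protein, and both are used to sort mouse stem and progenitor cells. Flt3 encodes a cytokine receptor of early multipotent and lymphoid-primed progenitors. Lyl1, Erg and Meis1 belong to transcription factor families that control stem cell genes. Myb is needed for progenitors to multiply and Sox4 is a factor of early lymphoid and other progenitors. Cd34 is also known as a surface protein of mouse mast cells.

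Ly6a lies in a cluster of closely related genes, and the difference between its reads and those of its neighbours decides how its counts can be read. The last 100 coding bases of Ly6a (GRCm38, chr15:74995265-74995364, minus strand, within exon 3) are shown beside the matching stretches of 3 neighbours, read from the GENCODE M21 transcripts. Capitals mark bases that differ from Ly6a.
Ly6a: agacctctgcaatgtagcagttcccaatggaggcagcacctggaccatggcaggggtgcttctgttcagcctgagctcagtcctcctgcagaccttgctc
Ly6c1: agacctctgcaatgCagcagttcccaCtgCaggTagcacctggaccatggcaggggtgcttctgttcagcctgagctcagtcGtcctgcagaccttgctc
Ly6c2: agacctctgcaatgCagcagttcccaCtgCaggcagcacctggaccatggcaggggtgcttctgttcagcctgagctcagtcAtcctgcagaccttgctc
Ly6i: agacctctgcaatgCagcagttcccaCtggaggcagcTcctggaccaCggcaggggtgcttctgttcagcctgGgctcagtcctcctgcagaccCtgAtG

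Over these 100 bases Ly6c1 was 95% identical to Ly6a, Ly6c2 96% and Ly6i 92%. The stretch was placed around the longest run that the coding sequences of Ly6a and Ly6c1 share. These values therefore do not describe the whole genes. The longest identical run was 48 bases in Ly6c1, 52 in Ly6c2 and 25 in Ly6i. Reads were 50 bases long, so the windows shared with Ly6c1 counted next are not within this stretch. Over all annotated Ly6a transcripts, 246 of 1297 windows of 50 bases (19%) also occurred in transcripts of another gene. Of them 195 occurred in Ly6c1, 31 in Ly6i, 20 in I830127L07Rik and 3 in Ly6c2. The 3 neighbours shown above had few reads in these cells, and the reads of I830127L07Rik are not given here. Ly6c1 reached at most 0.328 CPM in any of the 3 classes, Ly6c2 at most 1.38 CPM and Ly6i at most 3.93 CPM, against 1315 CPM of Ly6a in mature mast cells. How reads shared between genes were treated by the authors' counting is not given in the sources used here.

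The level of a gene is given below as pooled CPM, the summed reads of a class over its summed mouse reads, with an exact 95% Poisson interval. A cell is counted as having a gene at 10 CPM or more, and the share of such cells has an exact 95% Clopper-Pearson interval. No molecular identifiers were used, so reads include copies made in amplification. The Poisson intervals cover counting error of reads only. The Clopper-Pearson intervals cover the sampling of cells from 1 pooled sample, taken as independent. Neither covers the spread between mice, and neither is a test between classes. Ratios are log2 of (CPM + 1) of the named class over (CPM + 1) of the other.

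Ly6a divided the progenitors more than any other of these genes and had the highest level per kb of exon in mature mast cells. Pooled Ly6a was 1315 CPM (95% interval 1309 to 1322) in mature mast cells, 97.3 CPM (95.1 to 99.5) in Gzmb-high BMCPs and 1076 CPM (1066 to 1086) in Gzmb-low BMCPs. Over all 93 BMCPs it was 451 CPM. Mature mast cells ranged from 0.679 to 4023 CPM with a median of 1226, and Gzmb-low BMCPs from 0 to 3443 CPM with a median of 1072. Gzmb-high BMCPs ranged from 0 to 1181 CPM with a median of 1.73. The 3 ranges overlapped, since each class held cells with and without Ly6a, but most Gzmb-high cells lay at the low end.

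The shares of cells with Ly6a also differed between classes. Ly6a was at 10 CPM or more in 87 of 94 mature mast cells (92.6%, interval 85.3 to 97) and in 25 of 33 Gzmb-low BMCPs (75.8%, 57.7 to 88.9). It was at that level in 10 of 60 Gzmb-high BMCPs (16.7%, 8.29 to 28.5). A further 40 Gzmb-high BMCPs had at least 1 Ly6a read but less than 10 CPM, a low level also seen in 7 mature mast cells. Among cells at 10 CPM or more, the median was 1343 CPM in mature mast cells, 533 CPM in Gzmb-high BMCPs and 1497 CPM in Gzmb-low BMCPs. After every cell was thinned to 100000 reads, 88 mature mast cells, 15 Gzmb-high BMCPs and 27 Gzmb-low BMCPs kept at least 1 Ly6a read.

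**Figure D1:**
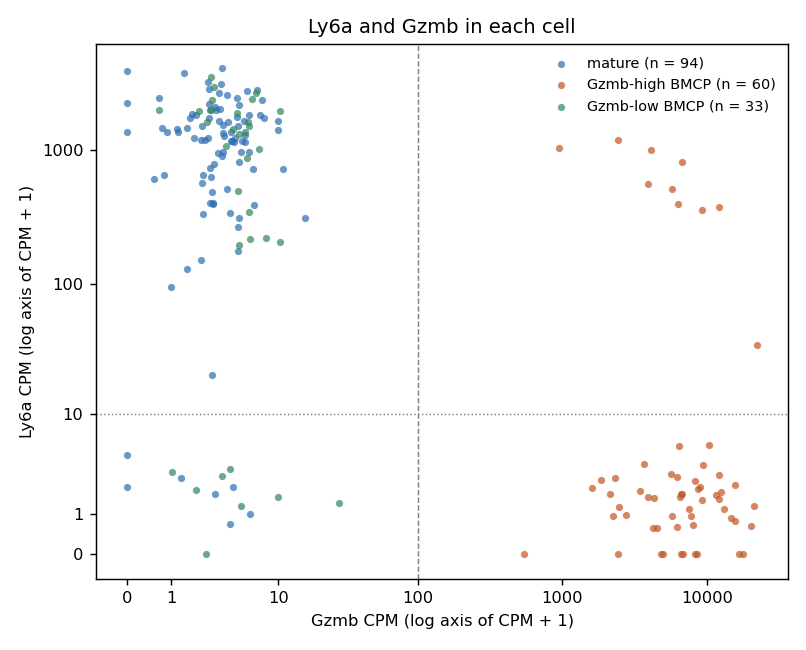
Ly6a CPM (vertical) against Gzmb CPM (horizontal) in each kept cell, both on log axes of CPM + 1, with 1 point per cell; the dashed line is the Gzmb level of 100 CPM and the dotted line 10 CPM of Ly6a. Of the 60 Gzmb-high BMCPs, 10 lie above the dotted line, against 25 of 33 Gzmb-low BMCPs and 87 of 94 mature mast cells.

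Ly6a was 11-fold lower in Gzmb-high than in Gzmb-low BMCPs (log2 ratio -3.45) and 2.91-fold higher in mature mast cells than in all BMCPs (log2 ratio 1.54). Mature mast cells had 13.4-fold more than Gzmb-high BMCPs and 1.22-fold more than Gzmb-low BMCPs; these comparisons share the mature cells. BMCP numbers 46 and 80 had 1497 and 1865 CPM of Ly6a. Without them, Gzmb-low BMCPs had 1038 CPM, 23 of 31 cells were at 10 CPM or more, and the ratio of Gzmb-high to Gzmb-low was -3.40. Over the alternatives (other cell filters, totals, summaries and pseudocounts, and single cells left out), the log2 ratio of mature mast cells to BMCPs lay between 1.48 and 2.45 and that of Gzmb-high to Gzmb-low BMCPs between -4.02 and -3.37.

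Over all BMCPs, cells with Ly6a also differed from those without it in granule genes. Among 35 BMCPs at 10 CPM or more of Ly6a, 21 (60%) had at least 1000 CPM of Mcpt4, a chymase gene of connective tissue mast cells, against 13 of 58 BMCPs (22.4%) under 10 CPM. The median share of reads on 10 granule genes was 23.8% in the former and 13.3% in the latter. Of the former 25 were Gzmb-low and of the latter 50 were Gzmb-high. Over all BMCPs this difference therefore cannot be told apart from that between the Gzmb classes. Within Gzmb-low BMCPs the Mcpt4 shares were 72% of 25 cells with Ly6a and 75% of 8 cells without it, and within Gzmb-high BMCPs they were 30% of 10 cells and 14% of 50 cells. Without BMCP numbers 46 and 80, 21 of 33 BMCPs with Ly6a (63.6%) had that much Mcpt4, with a median granule share of 26.8%, and the share within Gzmb-low BMCPs was 78.3% of 23 cells with Ly6a against the same 75% without it. Across the 93 BMCPs, Spearman's rho of Ly6a was -0.54 with Gzmb and 0.41 with Mcpt4 on log2(CPM + 1), as a description over cells of 1 sample, and -0.52 and 0.45 across the 91 BMCPs left without numbers 46 and 80. The genes most like Ly6a across BMCPs, among 3756 compared, were Pla2g7 (rho 0.53), B2m, the light chain of class I histocompatibility proteins (0.52), and Kalrn (0.52).

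Cd34 was higher in BMCPs, most of all in the Gzmb-high cells, with a higher level in the cells that had it. Pooled Cd34 was 137 CPM (135 to 140) in mature mast cells, 442 CPM (437 to 447) in Gzmb-high BMCPs and 224 CPM (220 to 229) in Gzmb-low BMCPs. Mature mast cells ranged from 0 to 806 CPM with a median of 1.71. Gzmb-high BMCPs ranged from 0 to 2704 CPM with a median of 225, and Gzmb-low BMCPs from 0 to 822 CPM with a median of 4.19. Cells without Cd34 were common in all classes, so the ranges overlapped.

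The shares of cells with Cd34 were close to each other. At 10 CPM or more, Cd34 was found in 45 of 94 mature mast cells (47.9%, 37.5 to 58.4), 34 of 60 Gzmb-high BMCPs (56.7%, 43.2 to 69.4) and 16 of 33 Gzmb-low BMCPs (48.5%, 30.8 to 66.5). Among those cells the median was 256 CPM in mature mast cells, 609 CPM in Gzmb-high BMCPs and 415 CPM in Gzmb-low BMCPs. The log2 ratio was -1.40 for mature mast cells over all BMCPs (2.63-fold lower) and 0.98 for Gzmb-high over Gzmb-low BMCPs. It lay between -1.45 and -0.49 and between 0.40 and 1.15 over the alternatives. The value nearest 0 in each case used spike-in RNA as the total, which moved the median of all genes as well. Without BMCP numbers 46 and 80 the ratio of Gzmb-high to Gzmb-low was 0.88.

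Flt3 was almost absent. It had 0 reads in 94 mature mast cells, where 3 reads would have been 0.0252 CPM, and 0 reads in 33 Gzmb-low BMCPs, where 3 reads would have been 0.0694 CPM. Gzmb-high BMCPs had 29 Flt3 reads (0.38 CPM), of which 27 came from BMCP number 84 and 2 from another cell. The 0 of 94 mature mast cells with a read allows a share of up to 3.19% of cells by the limit of 3 cells, and the upper bound of the exact 95% Clopper-Pearson interval was 3.85%. Csf1r, of the same receptor family, had 0 reads in all classes, and Kit, a further relative and a sort marker, had 980 CPM in mature mast cells, 1307 CPM in Gzmb-high BMCPs and 856 CPM in Gzmb-low BMCPs.

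**Figure D2:**
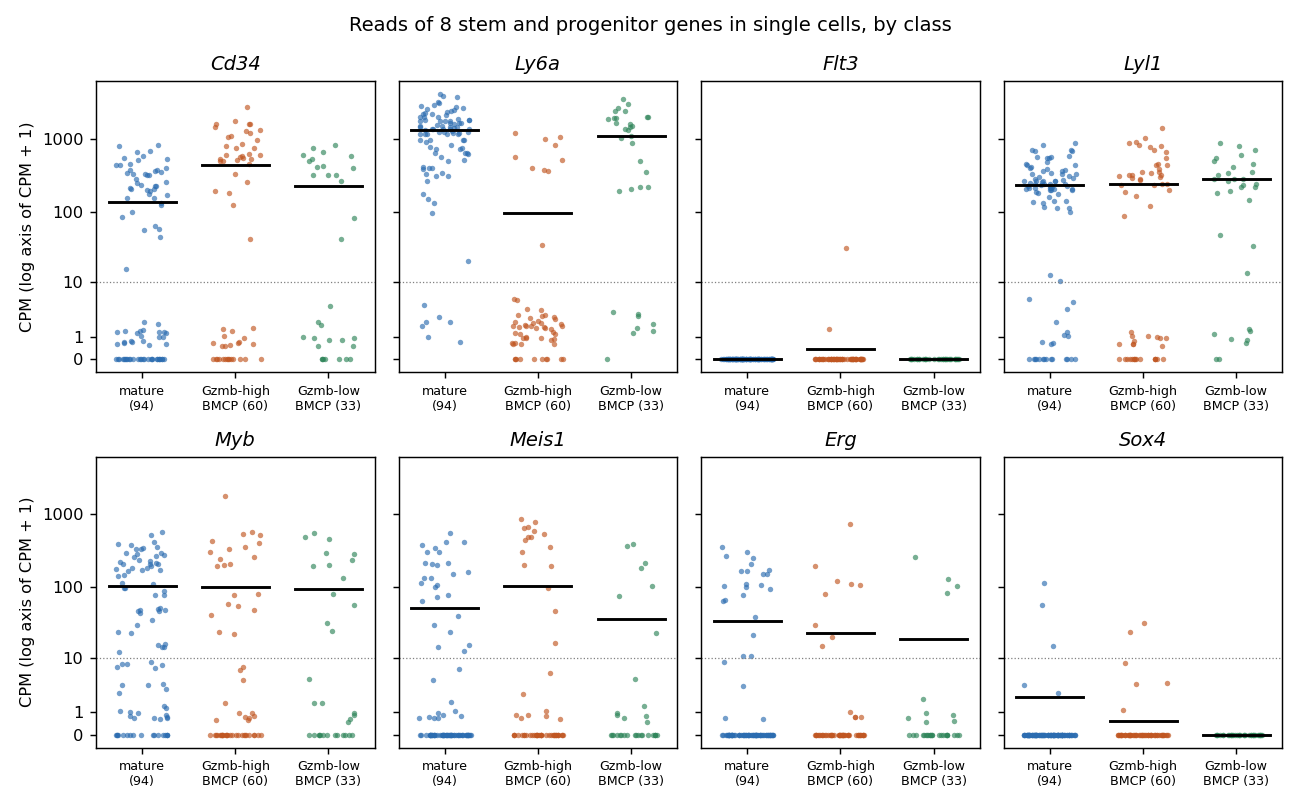
CPM of each of the 8 genes (vertical, log axis of CPM + 1) in every kept cell, with 1 point per cell, for 94 mature mast cells, 60 Gzmb-high and 33 Gzmb-low BMCPs. Black bars are pooled CPM and the dotted line is 10 CPM; most genes have cells at or near 0 and cells above 100 CPM in each class, while Ly6a has few Gzmb-high cells above the line.

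Lyl1, a basic helix-loop-helix factor of stem cells and early progenitors, was read in most cells of every class at similar levels. Its pooled level was 230 CPM (228 to 233) in mature mast cells, 238 CPM (235 to 242) in Gzmb-high BMCPs and 278 CPM (273 to 283) in Gzmb-low BMCPs. Mature mast cells ranged from 0 to 858 CPM with a median of 212, Gzmb-high BMCPs from 0 to 1400 CPM with a median of 195, and Gzmb-low BMCPs from 0 to 858 CPM with a median of 229. These ranges overlapped almost fully. Lyl1 reached 10 CPM in 70 mature mast cells (74.5%, 64.4 to 82.9), 34 Gzmb-high BMCPs (56.7%, 43.2 to 69.4) and 25 Gzmb-low BMCPs (75.8%, 57.7 to 88.9). The log2 ratio was -0.13 for mature mast cells over BMCPs and -0.22 for Gzmb-high over Gzmb-low BMCPs, and the former took positive signs when spike-in RNA, TMM factors (a trimmed mean of gene ratios) or totals without granule genes set the scale.

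Tal1, the closest relative of Lyl1, was also read in all classes, at 159 CPM in mature mast cells, 165 CPM in Gzmb-high BMCPs and 138 CPM in Gzmb-low BMCPs. Per kb of exon, which allows levels of different genes to be set side by side, pooled Lyl1 was 128 CPM per kb in mature mast cells, 132 in Gzmb-high BMCPs and 155 in Gzmb-low BMCPs. Pooled Tal1 was 36.2, 37.7 and 31.5 CPM per kb in the same order, so Lyl1 was the higher of the pair in every class.

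Myb had pooled levels within 1.1-fold of each other in the 3 classes, and a larger share of cells with it among mature mast cells. It was 103 CPM (102 to 105) in mature mast cells, 102 CPM (99.3 to 104) in Gzmb-high BMCPs and 94.3 CPM (91.4 to 97.2) in Gzmb-low BMCPs. Mature mast cells ranged from 0 to 575 CPM (median 26.9), Gzmb-high BMCPs from 0 to 1753 CPM (median 0.704) and Gzmb-low BMCPs from 0 to 562 CPM (median 0.942). Myb reached 10 CPM in 54 mature mast cells (57.4%, 46.8 to 67.6), 22 Gzmb-high BMCPs (36.7%, 24.6 to 50.1) and 13 Gzmb-low BMCPs (39.4%, 22.9 to 57.9). BMCP number 55 alone held 21.3% of the Myb reads of Gzmb-high BMCPs, and without it the ratio of Gzmb-high to Gzmb-low changed from 0.11 to -0.22. The same cell had the 7439 CPM of dendritic cell genes given above, whose part in this result was not tested. The log2 ratio of mature mast cells to BMCPs was 0.06 and became -0.03 without mature mast cell number 49 and -0.04 as a mean over cells.

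Meis1, a homeobox factor that works with Pbx and Hox proteins, was found in about the same share of cells in each class but at a higher level in Gzmb-high BMCPs. Pooled Meis1 was 52 CPM (50.8 to 53.4) in mature mast cells, 104 CPM (102 to 106) in Gzmb-high BMCPs and 36.1 CPM (34.3 to 37.9) in Gzmb-low BMCPs. The median cell had 0 CPM in every class, and the highest had 557, 863 and 391 CPM in the same order. It reached 10 CPM in 27 mature mast cells (28.7%, 19.9 to 39), 16 Gzmb-high BMCPs (26.7%) and 7 Gzmb-low BMCPs (21.2%). The median of those cells was 135 CPM in mature mast cells, 465 CPM in Gzmb-high BMCPs and 184 CPM in Gzmb-low BMCPs. The log2 ratio of Gzmb-high to Gzmb-low BMCPs was 1.50 (2.84-fold) and stayed between 0.93 and 1.93 over the alternatives. That of mature mast cells to all BMCPs was -0.60, and 0.30 with spike-in RNA as the total.

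Cd34 and Meis1 were the 2 genes with the most positive ratios of Gzmb-high to Gzmb-low BMCPs, and the 250 bases before their RefSeq start sites (GRCm38.p6) are shown for that reason. Cd34 is on chromosome 1, plus strand (chr1:194938571-194938820), and Meis1 on chromosome 11, minus strand (chr11:19018970-19019219). Capitals mark the letters of a searched motif, TGTGGT of RUNX factors, found in the Meis1 window.
Cd34: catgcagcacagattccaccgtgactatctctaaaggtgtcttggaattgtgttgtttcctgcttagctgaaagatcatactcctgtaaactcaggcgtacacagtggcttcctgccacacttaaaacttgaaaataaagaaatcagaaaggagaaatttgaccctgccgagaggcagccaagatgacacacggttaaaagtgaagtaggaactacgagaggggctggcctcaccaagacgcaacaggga
Meis1: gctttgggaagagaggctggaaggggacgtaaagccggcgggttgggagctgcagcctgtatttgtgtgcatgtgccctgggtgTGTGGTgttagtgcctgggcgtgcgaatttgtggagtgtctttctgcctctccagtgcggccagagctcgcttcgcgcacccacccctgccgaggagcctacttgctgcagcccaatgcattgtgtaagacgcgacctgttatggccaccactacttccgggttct

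The motifs were searched on both strands in the window from 250 bases before to 50 bases after each start site. The letters of GATA factors were AGATAA. An E-box was CAGCTG or the variant CATCTG. The letters of ETS factors were AGGAAGT. Those of MYB were TAACGG or the variant TAACTG. The letters of MEIS were TGACAG, the letters of RUNX were TGTGGT and the letters of SOX were AACAAT. None of these motifs contains another. Among all 32851 promoter windows, 11.2% held the GATA letters, 30.6% an E-box, 9.35% the ETS letters, 12.6% the MYB letters, 19.2% the MEIS letters, 16.8% the RUNX letters and 10.7% the SOX letters. The Cd34 and Lyl1 windows held none of the 7. The Myb, Sox4 and Flt3 windows held 1 E-box each. Of the 3 Erg windows, 1 held GATA letters, SOX letters and 2 matches to the MEIS letters. RefSeq windows were matched for 7 of the 8 genes. A match of letters is a description of the window and not a binding site.

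Erg, an ETS factor of stem cells, megakaryocytes and endothelium, was found in fewer cells of each class than the other 5 genes that reached 5 CPM. Pooled Erg was 34.4 CPM (33.3 to 35.4) in mature mast cells, 23.2 CPM (22.1 to 24.3) in Gzmb-high BMCPs and 18.8 CPM (17.5 to 20.1) in Gzmb-low BMCPs. The median cell had 0 CPM in every class, and the highest had 353, 747 and 263 CPM. It reached 10 CPM in 22 mature mast cells (23.4%, 15.3 to 33.3), 9 Gzmb-high BMCPs (15%, 7.1 to 26.6) and 4 Gzmb-low BMCPs (12.1%, 3.4 to 28.2). BMCP number 91 held 44.6% of the Erg reads of Gzmb-high BMCPs. The log2 ratio of mature mast cells to BMCPs was 0.65, and 1.13 without that cell, and the ratio of Gzmb-high to Gzmb-low BMCPs was 0.29 with it and -0.49 without it. Fli1, the closest relative of Erg, had 34 CPM per kb in mature mast cells, 52.2 in Gzmb-high and 37.1 in Gzmb-low BMCPs, against 9.92, 6.69 and 5.42 CPM per kb of Erg.

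Sox4 was read in few cells. Mature mast cells had 270 Sox4 reads in 5 cells (2.27 CPM), of which 160 (59.3%) came from mature mast cell number 85. Gzmb-high BMCPs had 39 reads in 6 cells (0.511 CPM) and Gzmb-low BMCPs had 0, where 3 reads would have been 0.0694 CPM. It reached 10 CPM in 3 mature mast cells and 2 Gzmb-high BMCPs. Of the annotated Sox4 exon bases (GRCm38, chromosome 13), 54.6% also lie in exons of Gm26735 on the opposite strand, which had 0 reads in every class, and whether the counting used strand is not given in the sources used here. The level of Sox4 is uncertain for this reason. Its relatives Sox11 and Sox12 stayed at or below 0.471 CPM.

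**Figure D3:**
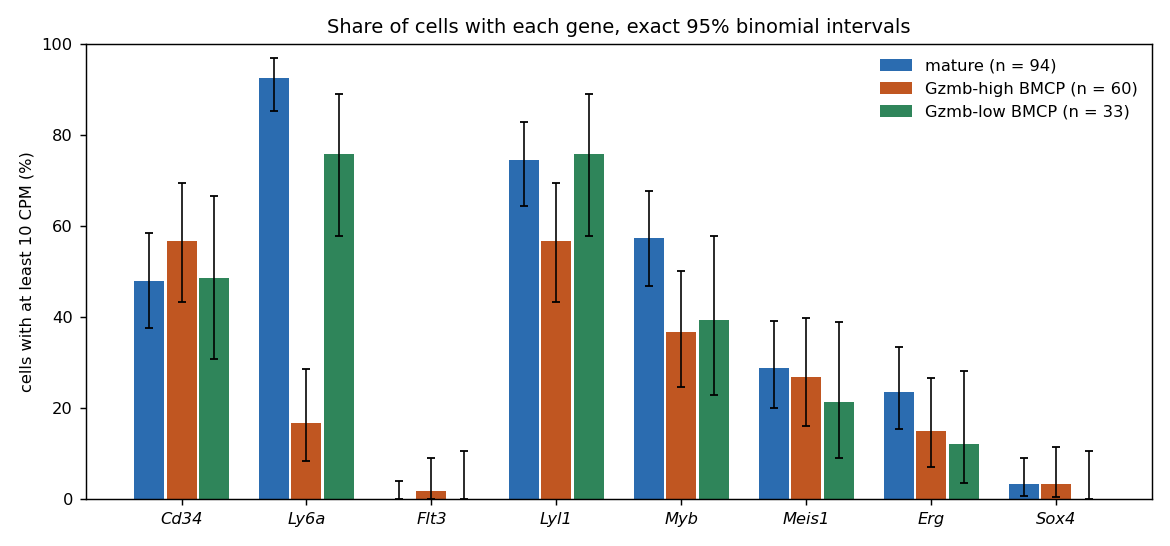
Percent of cells with at least 10 CPM of each gene (vertical) in 94 mature mast cells, 60 Gzmb-high and 33 Gzmb-low BMCPs; bars start at 0 and error bars are exact 95% binomial intervals. For Ly6a the Gzmb-high interval (8.29 to 28.5) lies below those of the other classes, and for the other 7 genes the intervals overlap. The intervals take the cells of a pooled sample as independent, and their overlap or gap is no test between classes.

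Of the 8 genes, 6 had at least 5 CPM in a compared class and could be counted past 2-fold. In mature mast cells over BMCPs, Ly6a was higher past 2-fold and Cd34 lower. Among all 10556 genes that passed the same filter, 9.9% were higher and 19.2% lower past that fold, and the median log2 ratio was -0.25 against -0.04 for the 6 genes. Between Gzmb-high and Gzmb-low BMCPs, Meis1 was higher past 2-fold and Ly6a lower, where 27.6% of 10624 genes were higher and 17.5% lower. The median over all genes was 0.29 there, against 0.20 for the 6. Without BMCP numbers 46 and 80 these medians were 0.32 and 0.10. The counts of 1 in 6 each way were near these background shares.

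**Figure D4:**
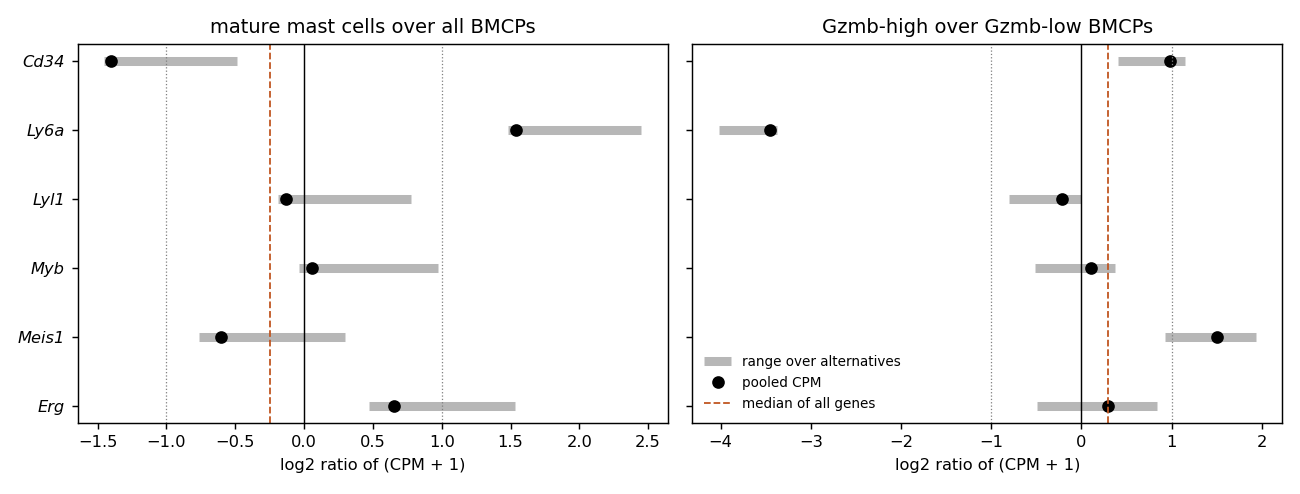
Log2 ratios (horizontal) of the 6 genes with at least 5 CPM, for mature mast cells over all BMCPs (left) and Gzmb-high over Gzmb-low BMCPs (right); points are pooled CPM, grey bars the range over the alternatives, dotted lines 2-fold and dashed lines the median of all genes (-0.25 and 0.29). The grey bars of Ly6a and Cd34 stay on 1 side of 0 in both panels. So do those of Erg in the left panel and Meis1 in the right panel, where that of Lyl1 runs from -0.80 to -0.00.

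Against mature mast cells, the Gzmb classes differed in which genes passed 2-fold. Mature mast cells and Gzmb-low BMCPs had 0 of the 6 genes past 2-fold either way, where 17.5% of 10311 genes were higher in mature mast cells and 15.6% lower. The largest ratios were 0.84 for Erg and -0.70 for Cd34. Against Gzmb-high BMCPs, mature mast cells had higher Ly6a (log2 ratio 3.74) and lower Cd34 (-1.68), where 14.2% of 10544 genes were higher and 23.7% lower, and Meis1 lay just inside 2-fold at -0.99. These comparisons share the mature cells, and a test of the difference between them was not possible with 1 sample.

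Per kb of exon, the order of the genes differed between classes. In mature mast cells Ly6a came first at 1092 CPM per kb, followed by Lyl1 at 128, Cd34 at 18.9, Myb at 11.6, Erg at 9.92, Meis1 at 4.94 and Sox4 at 0.474. In Gzmb-high BMCPs Lyl1 came first at 132 CPM per kb, followed by Ly6a at 80.8, Cd34 at 60.6, Myb at 11.4, Meis1 at 9.89, Erg at 6.69, Sox4 at 0.107 and Flt3 at 0.0615. Gzmb-low BMCPs had the order of mature mast cells down to Meis1, with Ly6a at 893, Lyl1 at 155, Cd34 at 30.7, Myb at 10.6, Erg at 5.42 and Meis1 at 3.43 CPM per kb. Exon length was the union over annotated transcripts. With 1 sample per class, whether neighbours in these orders differ could not be tested.

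Among 93 BMCPs ordered by the share of reads on the 10 granule genes, Ly6a was higher and Cd34 and Meis1 lower in the cells with most granule reads. The 24 cells with the lowest share (0.113% to 8.77%) had 549 CPM of Cd34, 138 CPM of Meis1, 208 CPM of Lyl1 and 189 CPM of Ly6a. The 23 cells with the highest share (22.8% to 33.8%) had 229 CPM of Cd34, 41.3 CPM of Meis1, 300 CPM of Lyl1 and 1005 CPM of Ly6a. BMCP numbers 46 and 80 were among the 24 cells, and the 22 others (2.97% to 8.77%) had 616 CPM of Cd34, 154 CPM of Meis1, 190 CPM of Lyl1 and 14.8 CPM of Ly6a. Gzmb reached 100 CPM in 21 of the former and 1 of the latter, so the granule share and the Gzmb class cannot be told apart at these ends. In the groups of 23 cells between them, Cd34 was 431 and 273 CPM and Ly6a 304 and 274 CPM. Granule genes also take up part of each cell's total.

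Most cells held several of the 8 genes, in different combinations. At 10 CPM or more, the median was 3 genes per mature mast cell, 2 per Gzmb-high BMCP and 3 per Gzmb-low BMCP, and without Ly6a it was 2 in each class. None of the mature mast cells, 6 Gzmb-high BMCPs and 1 Gzmb-low BMCP held none of the 8. In Gzmb-high BMCPs, 11 of the 16 cells with Meis1 (68.8%) also had Cd34, which was present in 56.7% of all those cells, and 0 of 16 had Erg, present in 15% of all. In mature mast cells, 12 of 27 cells with Meis1 (44.4%) had Cd34, present in 47.9% of all, and 8 of 27 (29.6%) had Erg, present in 23.4% of all. In Gzmb-low BMCPs, 4 of 7 cells with Meis1 (57.1%) had Cd34, present in 48.5% of all, and 1 of 7 (14.3%) had Erg, present in 12.1%. Only 9 Gzmb-high BMCPs had Erg. These are examples out of all pairs of the 8 genes, and whether any pair was found together more or less often was not tested. For genes of the 8 with at least 10 CPM in at least 20 cells of a group, the highest rho with any compared gene was 0.44 (Cd34 with Napa in BMCPs), apart from Ly6a in BMCPs; in sparse counts this is no finding.

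The regulators that work beside these genes had a lower median ratio in mature mast cells and a higher one in Gzmb-high BMCPs than all genes, though most of their differences were under 2-fold. Of 22 further transcription factors of stem cells and early progenitors, 16 passed 5 CPM in mature mast cells or BMCPs, and 0 were higher and 6 lower in mature mast cells past 2-fold, with a median log2 ratio of -0.85 against -0.25 for all genes. Between Gzmb-high and Gzmb-low BMCPs 18 passed, with 7 higher and 1 lower and a median of 0.78 against 0.29. Past the same filter, 9.9% of all genes were higher and 19.2% lower in mature mast cells than in BMCPs. In Gzmb-high over Gzmb-low BMCPs, 27.6% of all genes were higher and 17.5% lower. Without BMCP numbers 46 and 80, 8 factors were higher and 1 lower in Gzmb-high BMCPs, with a median of 0.91 against 0.32. With spike-in RNA as the total, the medians were 0.04 and 0.08, against 0.67 and -0.31 for all genes, and the counts were 1 higher and 2 lower in mature mast cells and 6 higher and 1 lower in Gzmb-high BMCPs. In mature mast cells 0 were higher and 4 lower with TMM factors, with totals without granule genes and, as a separate alternative, without BMCP numbers 46 and 80. The shares of all genes past 2-fold at these other settings are not given here.

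Runx1, a factor needed for blood stem cells to form, was 16.9 CPM in mature mast cells, 154 CPM in Gzmb-high BMCPs and 18.1 CPM in Gzmb-low BMCPs, with 14, 30 and 6 cells at 10 CPM or more. Its log2 ratio of Gzmb-high to Gzmb-low BMCPs was 3.03 and lay between 2.45 and 3.72 over the alternatives. Ldb1, an adaptor that binds Tal1 and Lmo2, had a ratio of 2.58, though 51.7% of its Gzmb-high reads came from 1 cell. Etv6, an ETS repressor, had 31.5 and 1.16 CPM in the BMCP classes, with 55.1% of the Gzmb-high reads in 1 cell. Bcl11a was 45.1 CPM in Gzmb-high BMCPs, against 0.0505 CPM in mature mast cells, and BMCP number 80 held 97.8% of its Gzmb-low reads. Ikzf2 was 132 CPM in mature mast cells, 345 CPM in Gzmb-high BMCPs and 173 CPM in Gzmb-low BMCPs. Myc was lower in mature mast cells (12.3 CPM) than in BMCPs (35.1 CPM), at a log2 ratio of -1.44 that lay between -2.50 and -0.57 over the alternatives. BMCP number 46 held 92.8% of the Gzmb-low reads of Myc, and the ratio of Gzmb-high to Gzmb-low BMCPs was 0.20 with that cell and 3.46 without it. Mycn and Gfi1b each had their BMCP reads in 1 cell.

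The Meis1 relatives and partners had medians of the opposite sign, with members on both sides. Of 12 Meis, Pbx, Pknox and Hox genes, 6 passed 5 CPM in mature mast cells or BMCPs, with 2 higher and 0 lower in mature mast cells and a median of 0.83 against -0.25 for all genes. Between Gzmb-high and Gzmb-low BMCPs 7 passed, with 1 higher and 4 lower and a median of -1.21 against 0.29. The shares of all genes were 9.9% higher and 19.2% lower in the former comparison, and 27.6% and 17.5% in the latter. Meis2 was 165 CPM in mature mast cells, 17.4 CPM in Gzmb-high BMCPs and 118 CPM in Gzmb-low BMCPs, in 71, 5 and 21 cells at 10 CPM or more. Its log2 ratio of Gzmb-high to Gzmb-low was -2.70 and between -3.43 and -2.43 over the alternatives, while that of Meis1 was 1.50. Meis3 was 83.6, 50.4 and 32.2 CPM in the same order of classes. Meis3 (log2 ratio 0.63), Pknox1 (0.85) and Hoxa10 (2.82) lay above 0 for Gzmb-high over Gzmb-low BMCPs, and Pknox1 became -0.56 without the Gzmb-high cell with most of its reads.

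The partners were less even across cells. In mature mast cells Pbx3 was 11.8 CPM, Pbx4 28.5 CPM and Pknox1 35.1 CPM, against 0.0753, 16.7 and 43.3 CPM in BMCPs, and the ratio of Pknox1 changed sign without the BMCP with most of its reads. In Gzmb-low BMCPs 1 cell held 99.8% of the Pbx2 reads, and without that cell the log2 ratio of Gzmb-high to Gzmb-low BMCPs, -3.50, became 0.11. Hoxa10, with 95.3% of its Gzmb-high reads in 1 cell, was the list's only gene past 2-fold the other way.

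**Figure D5:**
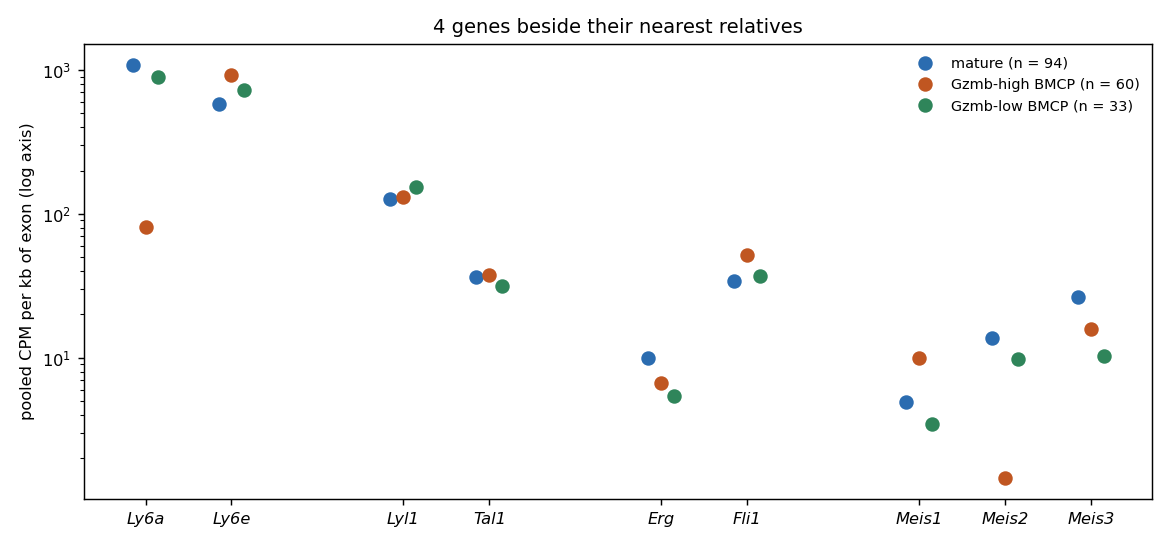
Pooled CPM per kb of exon (vertical, log axis) of 4 genes beside their nearest relatives, with 1 point for each of mature mast cells (94 cells), Gzmb-high BMCPs (60) and Gzmb-low BMCPs (33). Meis1 is highest in Gzmb-high BMCPs (9.89) and Meis2 lowest there (1.45). Ly6a is lowest in Gzmb-high BMCPs (80.8) and Ly6e highest (920), the latter not with spike-in RNA as the total. With spike-in RNA as the total, the log2 ratio of Meis1 in mature mast cells over all BMCPs was 0.30. Mature mast cells over Gzmb-high BMCPs alone are not given at that setting.

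Ly6e, the most abundant relative of Ly6a, had the opposite order of classes in CPM, which spike-in RNA as the total turned round. It was 2213 CPM in mature mast cells, 3483 CPM in Gzmb-high BMCPs and 2757 CPM in Gzmb-low BMCPs, and its log2 ratio of mature mast cells to BMCPs was -0.54, and 0.37 with spike-in RNA as the total. Between Gzmb-high and Gzmb-low BMCPs the ratio was 0.34, and -0.24 with spike-in RNA. Ly6d, a gene of B cell progenitors, was 130 CPM in Gzmb-low BMCPs and 0.0496 CPM without BMCP numbers 46 and 80. Of 18 relatives in all, 7 passed 5 CPM in each comparison. In mature mast cells over BMCPs 1 was higher (Meis2) and 1 lower (Ly6d) past 2-fold, with a median of -0.22. In Gzmb-high over Gzmb-low BMCPs 0 were higher and 2 lower (Meis2 and Ly6d), with a median of 0.34. Of all genes, 9.9% were higher and 19.2% lower in the former comparison, and 27.6% and 17.5% in the latter. Without BMCP numbers 46 and 80, 6 passed, Meis2 was the 1 gene past 2-fold in each comparison, and the medians were -0.13 and 0.52. The shares of all genes past 2-fold without those cells are not given here. Mybl1, Mybl2, Tal2, Podxl and Emcn stayed under 1 CPM in every class.

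Other surface proteins of stem cells were mostly not read or were shared with mast cells. Of 17 such genes, 8 passed 5 CPM, with 1 higher and 2 lower in mature mast cells (median -0.38 against -0.25) and 2 higher and 1 lower in Gzmb-high BMCPs (median 0.28 against 0.29). For all genes the shares were 9.9% higher and 19.2% lower in mature mast cells, and 27.6% and 17.5% in Gzmb-high BMCPs. Slamf1, Esam and Tek had 0 reads in every class. Cd9, a tetraspanin, was 43.3 CPM in mature mast cells, 431 CPM in Gzmb-high BMCPs and 63.5 CPM in Gzmb-low BMCPs, in 20, 42 and 5 cells at 10 CPM or more. Its log2 ratio of Gzmb-high to Gzmb-low was 2.74 and between 2.17 and 3.94 over the alternatives. Bst2 had the order of Ly6a, with 300 CPM in mature mast cells, 79.9 CPM in Gzmb-high BMCPs and 211 CPM in Gzmb-low BMCPs. Itga2b, the integrin chain also called CD41, was 228, 516 and 261 CPM. Cd27 had 0.362 CPM in the mature class, against 30.8 CPM in Gzmb-high BMCPs, where 4 cells reached 10 CPM.

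Genes of other early lineages were few. Of 12 granulocyte and monocyte progenitor genes, 7 (Mpo, Prtn3, Elane, Cebpa, Cebpe, Csf1r and Csf3r) had 0 reads in every class and 3 passed 5 CPM, with 0 higher and 2 lower in mature mast cells and 0 higher and 1 lower in Gzmb-high BMCPs. Ctsg, the gene of cathepsin G, was 414 CPM in mature mast cells, 1169 CPM in Gzmb-high BMCPs and 1305 CPM in Gzmb-low BMCPs. Irf8 was 27.1 CPM in Gzmb-low BMCPs, with 99.9% of the reads in BMCP number 80. Fcgr3, a low-affinity receptor for IgG, was 815, 765 and 696 CPM. The list's median was -1.55 for mature mast cells over BMCPs and -0.16 for Gzmb-high over Gzmb-low BMCPs. Among all genes, 9.9% were higher and 19.2% lower past 2-fold in the former, and 27.6% and 17.5% in the latter. Without BMCP numbers 46 and 80, 2 genes passed, too few for a median, with 0 higher and 1 lower in mature mast cells and 0 past 2-fold either way between the Gzmb classes. The shares of all genes past 2-fold without those cells are not given here.

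Of 10 lymphoid-primed genes, Rag1, Rag2 and Ccr9 had 0 reads and 4 passed 5 CPM, with 0 higher and 2 lower in mature mast cells (median -1.17) and 0 higher and 1 lower in Gzmb-high BMCPs (median -0.22). For all genes these shares were 9.9% and 19.2% in mature mast cells, and 27.6% and 17.5% in Gzmb-high BMCPs. Lmo4 was 75.6 CPM in mature mast cells, 260 CPM in Gzmb-high BMCPs and 158 CPM in Gzmb-low BMCPs. Ccr7 was 294 CPM in Gzmb-low BMCPs and 0.0248 CPM without BMCP numbers 46 and 80. Notch1 was 54.1, 60.2 and 84.1 CPM and Satb1 38.5, 68 and 66.3 CPM in the order of mature mast cells, Gzmb-high and Gzmb-low BMCPs. The Satb1 ratio of Gzmb-high to Gzmb-low, 0.03, became -1.22 without BMCP number 51 and 1.26 without number 46, the cells with most Satb1 reads in each class. Without BMCP numbers 46 and 80, 3 of the 10 genes passed, with 0 higher and 1 lower in mature mast cells (median -0.48) and 1 higher and 0 lower in Gzmb-high BMCPs (median 0.61). The shares of all genes past 2-fold without those cells are not given here.

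Of 10 megakaryocyte and erythroid progenitor genes, 3 passed 5 CPM, with 1 higher and 1 lower in each comparison and medians of 0.61 and 0.15. Gata1, a factor of erythroid cells and mast cells, was 232 CPM in mature mast cells, 158 CPM in Gzmb-high BMCPs and 142 CPM in Gzmb-low BMCPs. Car2, a carbonic anhydrase, was 61.3 CPM in Gzmb-high BMCPs, where 7 cells reached 10 CPM, and at most 0.0463 CPM in the other two classes. Epor was 24.6 CPM in mature mast cells, 0.0131 CPM in Gzmb-high BMCPs and 23.3 CPM in Gzmb-low BMCPs, where 2 cells reached 10 CPM. Of the 10 granule genes, 2 were higher and 0 lower in mature mast cells (median 0.62), and 0 were higher and 4 lower in Gzmb-high BMCPs (median -0.59). For both lists, the shares of all genes were 9.9% higher and 19.2% lower in mature mast cells, and 27.6% and 17.5% in Gzmb-high BMCPs. Mature mast cells over Gzmb-low BMCPs alone had 0 granule genes past 2-fold either way (median 0.11). Of all genes, 17.5% were higher and 15.6% lower there. Over Gzmb-high BMCPs alone 5 granule genes were higher and 0 lower (median 0.83), where 14.2% of all genes were higher and 23.7% lower.

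The 8 genes lie apart on GRCm38, at chr1:194938819-194961279 (Cd34), chr15:74994877-74998031 (Ly6a), chr5:147330741-147400489 (Flt3), chr8:84701457-84704715 (Lyl1), chr10:21124935-21160984 (Myb), chr11:18879817-19018985 (Meis1), chr16:95359169-95586593 (Erg) and chr13:28948919-28953713 (Sox4). Antisense and overlapping genes touch some of these counts. Of the annotated exon bases of Meis1, 8.51% are shared with Gm16140 on the opposite strand and 9.77% with Gm37818 on the same strand, and these genes had at most 0.303 and 1.16 CPM in a class. Of Myb, 6.26% are shared with Gm26577, which had at most 1.22 CPM, and of Cd34, 2.03% with Gm16897, which had 6.96 CPM in Gzmb-high BMCPs. Flt3, Erg and Ly6a exons overlapped no other annotated exon, and those of Lyl1 overlapped 4 bases of Nfix.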

How the data were processed

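Full-length cDNA of single cells sorted 1 per well was amplified with 23 PCR cycles and read as 50 bp single-end reads, with ERCC spike-in RNA in each well, per the labels' protocols. The authors deposited raw read counts per gene and cell, not normalized, with GSNAP, HTSeq (0.5.3p3) and mm10 named per the submitters' processing notes. The annotation release and the strand setting are not given in the sources used here. Of the table's reads, 3.11% were ambiguous, 14.4% had no feature and 14.1% were not aligned; these, the 92 ERCC rows and 1 unnamed empty column stayed out of totals. Symbols, exon lengths and coordinates came from GENCODE M21 (GRCm38), which gave a symbol to 45143 of 46078 identifiers (98%), and promoters from RefSeq.

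Cells under 100000 reads on mouse genes, 2 BMCPs, were left out. Doublets were not called. No columns were identical. Counts were summed per class with pandas 2.3.3 and numpy 2.4.6, scaled to CPM and compared as log2 ratios with a pseudocount of 1 CPM, with no test, since each group is 1 sample. A gene entered counts past 2-fold with at least 5 CPM in either class. Intervals used scipy 1.17.1. TMM factors came from edgeR 4.0.16. The calculation was tested on simulated data with known fold changes.

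The 8 genes and the lists (stem cell factors, Meis1 partners, stem cell surface, lymphoid, granulocyte and monocyte, megakaryocyte and erythroid, relatives, granule, and markers of mast, endothelial, fibroblast and mesothelial, dendritic, B, T and natural killer, macrophage and eosinophil cells) were chosen with earlier results of these data known. Besides the 8, genes at 5 CPM or more with the 5 largest ratios of a list and the closest relatives were named; Gm genes that overlap the 8, Slamf1 and other genes at 0 reads, and genes whose reads lie in BMCP numbers 46 and 80 were named after their values were seen. Likeness was Spearman's rho over the cells of a group among genes at 10 CPM in at least 20 cells. The alternatives are the cell filter, scaling, summary, pseudocount, Gzmb level, detection level and single cells left out; leaving out BMCP numbers 46 and 80, and number 55 with ERCC scaling, was added after the data were seen.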

Additional observations from a re-analysis of the deposited data

Results flagged for a closer look

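BMCP number 6, left out because it had 3978 reads on mouse genes, still held 4 Lyl1 reads, above the 3 reads used as the limit of a count of 0. It also had 3 Ly6a reads and 1 Cd34 read. The other cell left out, BMCP number 93, had 2 Ly6a reads among 36972 and 0 reads of the remaining 7 genes.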

How the results depend on the processing

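With 1 pooled sample per group, no setting tests a difference, and the spread between mice is unknown. No paired analysis was possible because the results come from no test and the numbers in the labels only name cells. Of the counts of genes past 2-fold, 44 values stayed near the main ones and 8 moved. The shares of all genes past 2-fold are given for the main setting only. The counts below at other settings therefore have no background share beside them and were not compared with one. Of the log2 ratios, 64 stayed near, 77 moved and 15 changed sign. Of the shares of cells 77 stayed near and 19 moved, and of the medians of all genes 14 stayed near, 3 moved and 5 changed sign. ERCC totals, the setting with the largest effect, made up 0.123% of the mature and 0.232% of the BMCP reads, and BMCP number 55 held 13.7% of the latter. With them 2 of the genes were higher and 0 lower in mature mast cells, and 0 were higher in Gzmb-high BMCPs; the median of all genes became 0.67 for mature mast cells over BMCPs and -0.31 for Gzmb-high over Gzmb-low BMCPs. Meis1 became 0.30 and Lyl1 0.78 in the former, and Myb -0.46 and Erg -0.26 in the latter. With ERCC totals and without BMCP number 55, 2 genes were higher and 0 lower in mature mast cells, the medians were 0.48 and -0.02, Meis1 was 0.09, Lyl1 0.56 and, between the Gzmb classes, Myb -0.51. With TMM factors the median of all genes was 0.00, Lyl1 0.11 and Myb -0.08 between the Gzmb classes. With totals without granule genes, Lyl1 was 0.07 and Myb -0.09 between the Gzmb classes. As means over cells, 2 genes were higher in Gzmb-high BMCPs and Myb was -0.04. Without the BMCP with most reads of each gene, 2 genes were higher in mature mast cells, and without the Gzmb-low cell with most reads, 2 were higher in Gzmb-high BMCPs. Without mature mast cell number 49 Myb was -0.03, without BMCP number 55 Myb was -0.22 between the Gzmb classes, and without number 91 Erg was -0.49 there. The causes were not tested. Gzmb levels of 50 and 500 CPM moved no cell between classes.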
